A study of Carica papaya with 7 samples.

Results

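The genes described here were nuclear genes whose signal in the pulp of ripe papaya was lower than in the pulp of unripe papaya and that were detected above a fixed brightness. They were chosen from the same signals that are described. For each probe-set, a group of short probes designed for 1 or several Arabidopsis transcripts, the 3 ripe and the 3 unripe columns were averaged on the linear scale. Control probe-sets, probe-sets for genes of the plastid and mitochondrial genomes and the genes AT5G08570 and AT3G07010 were left out, although neither of these 2 genes would have passed. A probe-set was kept when its larger stage mean was above 8.24 and its unripe mean exceeded its ripe mean by more than 25%. The limit of 8.24 was the signal of the brightest of 27 control probe-sets for Bacillus subtilis genes, which match no plant gene. The rule kept 211 of 22810 probe-sets. These were 9.15% of the 2307 nuclear probe-sets with a mean over 8.24, while in 201 (8.71%) the ripe mean exceeded the unripe mean by more than 25%, and 1895 passed this limit in neither direction. Because the choice was made on this contrast, all differences between the stages are descriptions without a test.

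Ripe and unripe fruit were of the papaya cultivar Golden, and each sample was made from 12 fruits without peel and seeds, all fruit having been picked as the peel began to turn yellow. Biotin-labelled cRNA from total RNA of the pulp was hybridized to the Affymetrix ATH1 GeneChip, an array for Arabidopsis, so that each gene name below is that of the Arabidopsis gene and the signal depends on how well the papaya transcript matches its probes. The deposited table has 3 columns for each stage, but they do not vary independently. In both stages all 22810 probe-sets had a replicate 2 of 1.19 times replicate 1, and a replicate 3 halfway between these within 0.0011 signal units. Each stage therefore holds 1 set of values. No SD, error or p-value can be given for a difference, and differences between stages and between single hybridizations cannot be told apart. The array of papaya genomic DNA was not analysed here, since its column holds no values.

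Papaya is a climacteric fruit, in which a burst of ethylene and respiration accompanies ripening. The pulp softens as cell wall polymers are taken apart, chloroplasts turn into carotenoid-rich chromoplasts, and acids and phenolic compounds change. Synthesis of new proteins by cytosolic and organellar ribosomes and their removal by the ubiquitin system continue during this period. In a bulk sample of pulp, fewer cells of a type and less RNA per cell cannot be told apart.

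The differences were small. The log2 difference, ripe minus unripe, ran from -1.17 to -0.32 with a median of -0.42, against a median of -0.0053 over all 2307 nuclear probe-sets above 8.24. In terms of fold, the unripe signal was up to 2.24 times the ripe signal, with a median of 1.34. It was past 1.4 fold in 56 members, past 1.5 fold in 22 (0.954% of the 2307) and past 2 fold in 2, and 57 lay at or below 1.3 fold. The ripe means ran from 5.10 to 210 with a median of 7.64 and the unripe means from 8.24 to 324 with a median of 10.7. In 122 members the ripe mean was at or below 8.24, and in 89 it was above. Where the ripe mean was no brighter than the bacterial controls, the fold is only a lower bound, written below as "at least" and taken against 8.24. The bound holds on the scale of the deposited table only and has no error estimate. With both stages set to at least 8.24, 113 of the 211 members were still past the 25% limit. Every ripe column lay under every unripe column in all 211, but the rule fixes this, since the columns of a stage differ by 1.19 fold and the stage means of members by more than that.

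**Figure D1:**
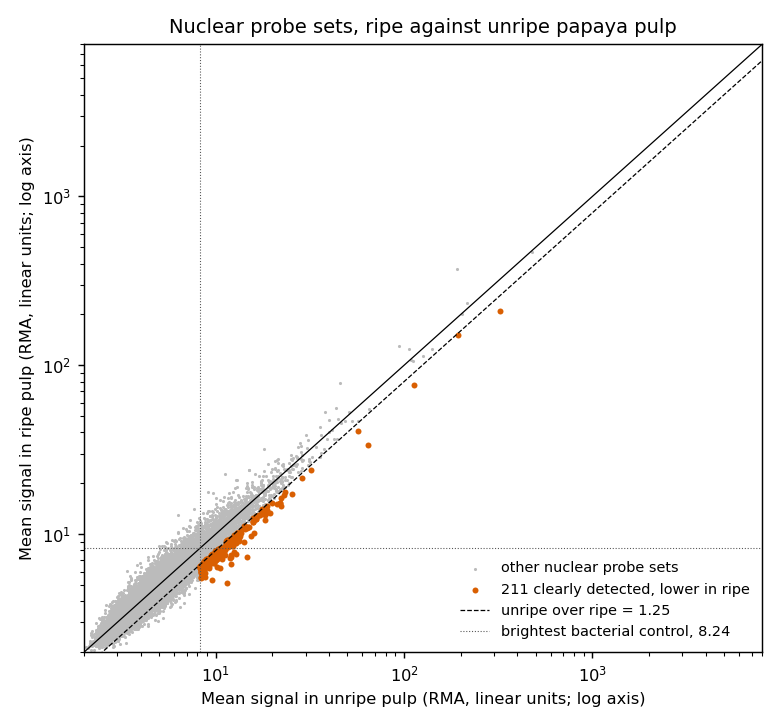
Mean signal of each nuclear probe-set in ripe pulp (vertical, log axis) against unripe pulp (horizontal, log axis), with the 211 members in orange and all others in grey. The solid line marks equal signals, the dashed line an unripe signal 25% above the ripe signal and the dotted lines 8.24; most members lie close to the dashed line and to the dotted corner, with a ripe median of 7.64 and an unripe median of 10.7.

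The limits of the rule cut through a continuous range. Just inside the fold limit lay probe-set 260615_at at 1.25068, AT1G54110 at 1.25094 and probe-set 263988_at at 1.25219 times the ripe signal. Just outside it lay AT3G46600 at 1.24809, AT3G07900 at 1.2497 and probe-set 264988_at at 1.2499. At the brightness limit, AT3G15450 (larger mean 8.24) and AT3G19950 (8.25) were just inside, and AT2G16005 (8.18) and AT3G02670 (8.19) were past the fold limit but just outside. Below the brightness limit 2.72% of 20267 nuclear probe-sets passed the fold limit in this direction.

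A single gene name was available for 116 members. The array's annotation gave 113 of these and the study's own annotation 3. Of the others, 5 carry several genes and 90 have no name here. With general knowledge of the Arabidopsis genes, 81 of the named members were sorted into 10 groups by the known role of the protein, and the median of each group lay between -0.38 and -0.49. The groups were made from the members alone, so that their sizes have no background among the other probe-sets and say nothing of a function being favoured. The other 35 named members had a median of -0.40 (-1.17 to -0.33), and the 95 members without a single name had a median of -0.42 (-0.94 to -0.32).

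Of the 2 members past 2 fold, 1 encodes a translationally controlled tumor protein, TCTP (AT3G16640), a conserved cytosolic protein tied to growth and to protein synthesis. Its signal was 6.71, 7.98 and 7.35 in the ripe columns, against 13.5, 16.02 and 14.7 in the unripe columns. All ripe columns were below the brightest bacterial control. On the scale of the deposited table, the measured log2 difference of -1.01 therefore stands for a signal at least 1.79-fold lower in ripe pulp. The other member past 2 fold was AT1G64560, to which no role is given here, with 4.66, 5.54 and 5.10 in ripe pulp, against 10.5, 12.4 and 11.4 in unripe pulp. Its log2 difference was -1.17 and its bound, at least 1.39-fold, was smaller than that of TCTP. Among members with a gene name, AT3G53320 was next, with a mean of 6.69 in ripe pulp and 12.1 in unripe pulp (log2 difference -0.85, at least 1.47-fold).

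**Figure D2:**
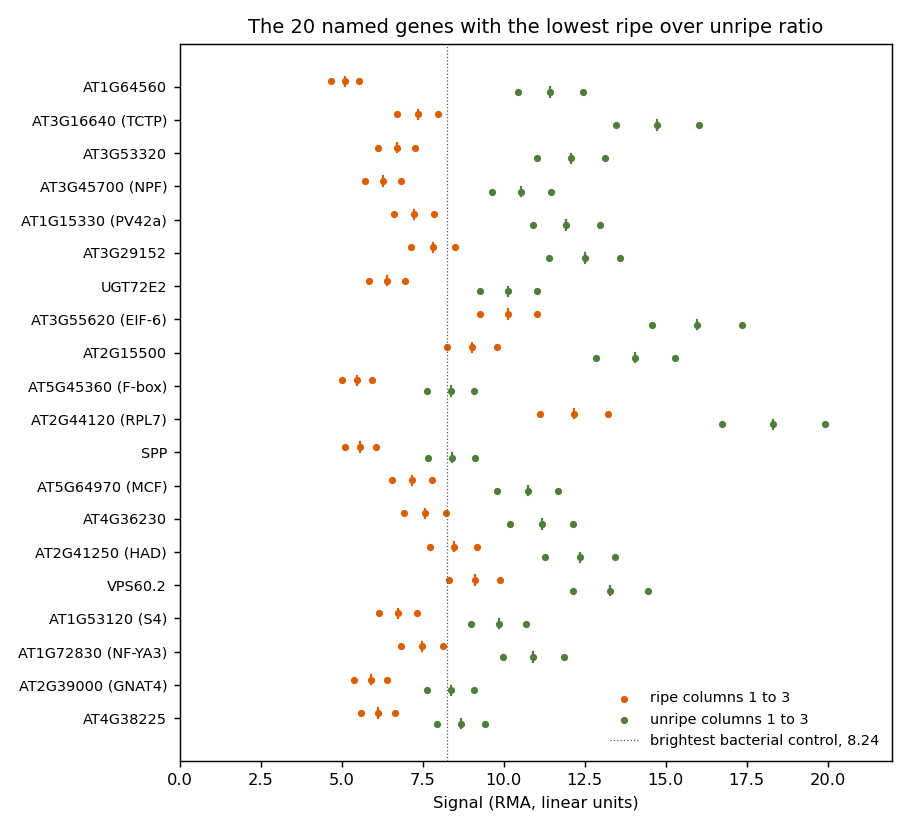
Signals (RMA, linear units) of the 20 named members with the lowest ripe over unripe ratio, ripe columns in orange above unripe columns in green, with a vertical tick at each stage mean and a dotted line at 8.24. In each gene the 3 points of a stage are spaced by the same factor; the ripe points of AT3G16640 (TCTP) lie at 6.71 to 7.98 and its unripe points at 13.5 to 16.02, while those of AT2G44120 (RPL7) lie at 11.1 to 13.2 and 16.7 to 19.9.

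Protein synthesis and ribosome assembly gave 10 members, with a median log2 difference of -0.44, and in 5 of them both stages were above 8.24. EIF-6 (AT3G55620), a factor that keeps the large ribosomal subunit from joining the small one too early and that takes part in its assembly, had 9.27, 11.025 and 10.1 in ripe pulp, against 14.6, 17.3 and 15.96 in unripe pulp. The signal was lower in ripe pulp (log2 difference -0.65, 1.57-fold). This direction is opposite to the one the study lists for the probe-set, from probes masked by genomic DNA. The reason was not tested. RPL7 (AT2G44120), a protein of the cytosolic large subunit, had 11.1, 13.2 and 12.2 in ripe pulp, against 16.7, 19.9 and 18.3 in unripe pulp (-0.59, 1.51-fold). A second cytosolic large-subunit protein, of the L34 family (AT1G26880), averaged 9.34 in ripe and 12.6 in unripe pulp. Organellar protein synthesis was represented as well. PRPS10 (AT3G13120), the S10 protein of the plastid small subunit, had 19.6, 23.3 and 21.5 in ripe pulp, against 26.4, 31.4 and 28.9 in unripe pulp (-0.43, 1.34-fold). The mitochondrial elongation factor Tu (AT4G02930), which brings aminoacyl-tRNA to the ribosome, had 6.36 in ripe and 8.28 in unripe pulp, at least 1.01-fold lower. NOP56-like AT3G12860, a core protein of the particles that modify ribosomal RNA, had 8.005 in ripe and 10.95 in unripe pulp (at least 1.33-fold), and the NAT10-like RNA acetyltransferase AT1G10490 had 8.45 and 11.7 (-0.48). MAP1A, a methionine aminopeptidase that trims new proteins, and the L36-family protein AT5G20180 were at -0.40 and -0.34.

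Protein folding and turnover gave 12 members with a median of -0.42, of which 7 were above 8.24 in both stages. UBC28, a ubiquitin-conjugating enzyme of the family that hands ubiquitin to a ligase, had 15.0, 17.8 and 16.4 in ripe pulp, against 20.2, 24.0 and 22.1 in unripe pulp (-0.43, 1.35-fold). Members of ligase families included AT3G02340 of the RING type with 14.0 in ripe and 18.7 in unripe pulp (-0.42), AT1G66620 of the SINA type with 13.0 in ripe and 17.1 in unripe pulp (-0.39) and the F-box protein AT5G45360. The F-box protein had a log2 difference of -0.61, but its 5.46 in ripe and 8.36 in unripe pulp allow only at least 1.01-fold. The study also lists this gene as lower in ripe fruit. NTAQ1 (AT2G41760), which turns an N-terminal glutamine into glutamate and so opens the way to the N-degron route of breakdown, had 9.24 in ripe and 12.0 in unripe pulp (-0.38). ERDJ2A, a Sec63-like DnaJ protein that helps proteins into the endoplasmic reticulum, had 9.72 in ripe and 13.1 in unripe pulp (-0.43). The papain-type cysteine protease AT3G45310 had 10.9 in ripe and 14.6 in unripe pulp (-0.43).

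A further 8 members were sorted as plastid proteins, leaving out those placed by role under protein synthesis or lipid metabolism. Their median was -0.47, and 3 of the 8 were above 8.24 in both stages. BASS3 (AT3G25410), a carrier family of the plastid envelope, had 13.7, 16.3 and 15.0 in ripe pulp, against 19.4, 23.1 and 21.2 in unripe pulp (-0.50, 1.42-fold). BCM1 (AT2G35260), a thylakoid protein that in Arabidopsis favours chlorophyll synthesis and slows chlorophyll breakdown, had 7.84, 9.33 and 8.58 in ripe pulp, against 11.1, 13.2 and 12.2 in unripe pulp (-0.50, 1.42-fold). CURT1A (AT4G01150), which bends thylakoid membranes at the grana margins, had 10.8, 12.9 and 11.8 in ripe pulp, against 14.4, 17.2 and 15.8 in unripe pulp (-0.42, 1.33-fold). In all 3 the ripe columns lay below the unripe ones, which the rule fixes for every member. The other 5 were dim in ripe pulp. SIRB, the ferrochelatase of siroheme synthesis, had 6.56 in ripe and 8.78 in unripe pulp (at least 1.07-fold), and RPOTmp (AT5G15700), a phage-type RNA polymerase of the organelles, had 6.49 and 8.76 (at least 1.06-fold). SPP, the peptidase that removes transit peptides from imported proteins, had 5.58 in ripe and 8.39 in unripe pulp (at least 1.02-fold), and the ABC1-like kinase AT3G24190 and the acetyltransferase GNAT4 (AT2G39000) were likewise at bounds of 1.06 and 1.02.

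**Figure D3:**
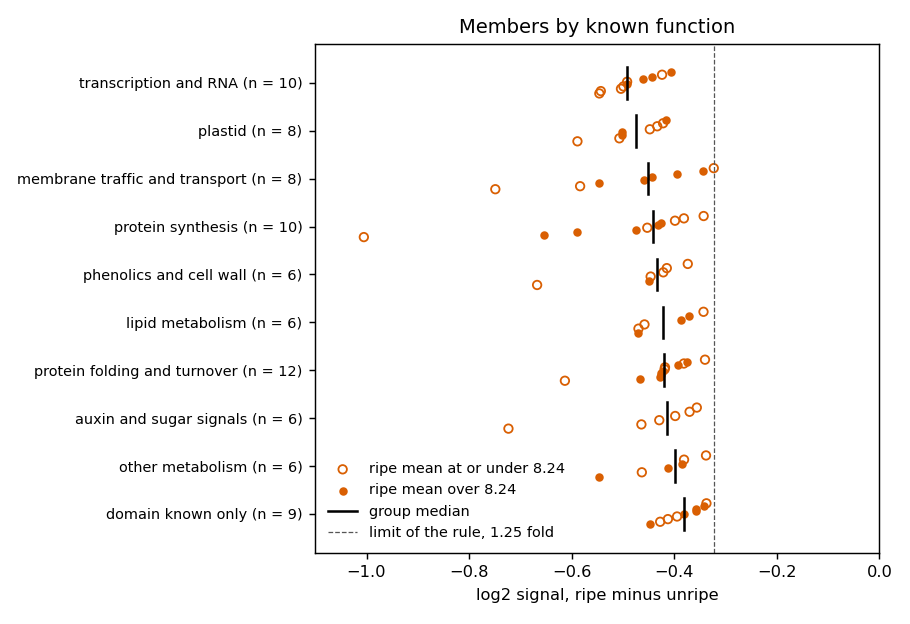
log2 signal difference, ripe minus unripe, of the 81 members sorted by the known function of the Arabidopsis protein, 1 point per probe-set, with filled points where the ripe mean was over 8.24, open points where it was at or under 8.24 and a black bar at the group median. The dashed line at the right is the fold limit of the rule; the group medians run only from -0.38 (domain known only) to -0.49 (transcription and RNA), and in auxin and sugar signals all 6 points are open.

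Transcription and RNA handling gave 10 members with a median of -0.49, and 4 were above 8.24 in both stages. The beta subunit of the general transcription factor TFIIF (AT1G75510), which works with RNA polymerase II at the promoter, had 11.9, 14.1 and 13.0 in ripe pulp, against 16.7, 19.9 and 18.3 in unripe pulp (-0.49, 1.41-fold). PDS5C (AT4G31880), a cofactor of the cohesin ring that holds chromatids together, had 11.04 in ripe and 15.02 in unripe pulp (-0.44). The CCAAT-binding factor subunit NF-YA3 (AT1G72830), the DNA-contacting part of a trimeric transcription factor, had 7.49 in ripe and 10.9 in unripe pulp (-0.54, at least 1.32-fold). PRP8-like AT4G38780, from the family at the centre of the spliceosome, had 7.62 in ripe and 10.7 in unripe pulp (at least 1.3003-fold). The exon junction protein of the Barentsz type AT1G15280, which marks spliced messages, had 9.33 in ripe and 12.8 in unripe pulp (-0.46).

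Membrane traffic and transport gave 8 members with a median of -0.45, and 7 of them were past the 25% limit also with signals set to at least 8.24. The lowest ratio was that of AT3G45700, a carrier of the nitrate and peptide transporter family, with 6.27 in ripe and 10.5 in unripe pulp (-0.75, at least 1.28-fold). AT5G64970 of the mitochondrial carrier family had 7.16 in ripe and 10.7 in unripe pulp (-0.58, at least 1.3026-fold). VPS60.2, related to the ESCRT-III proteins that pinch vesicles into endosomes, had 8.31, 9.89 and 9.10 in ripe pulp, against 12.1, 14.4 and 13.3 in unripe pulp (-0.55, 1.46-fold). The folate and biopterin transporter family member AT1G79710 had 15.2 in ripe and 19.97 in unripe pulp (-0.39). The beta-prime subunit of the COPI coat (AT1G79990), which packs vesicles that return from the Golgi, had 9.56 in ripe and 13.1 in unripe pulp (-0.46, 1.37-fold). A second probe-set for the same gene, 262051_at, had 9.50 in both stages (log2 difference 0.00010), so that the probe-sets of this gene differ.

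Phenolic and cell wall genes were 6, with a median of -0.43, and 5 had a ripe mean at or under 8.24. The exception was AT3G28550 of the proline-rich extensin family, which are structural glycoproteins of the wall, with 15.5, 18.4 and 16.9 in ripe pulp, against 21.1, 25.2 and 23.1 in unripe pulp (-0.45, 1.37-fold). UGT72E2, which puts glucose on monolignols, the building blocks of lignin, had 5.83, 6.94 and 6.38 in ripe pulp, against 9.26, 11.02 and 10.1 in unripe pulp (-0.67). Its ripe columns are all below 8.24, so that the bound is 1.23-fold. F6H2 (AT1G55290), a hydroxylase that acts on feruloyl-CoA on the way to coumarins, had 6.78 in ripe and 9.24 in unripe pulp (at least 1.12-fold). The beta-glucosidase BGLU42 had 7.57 in ripe and 10.1 in unripe pulp (at least 1.22-fold).

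Lipid metabolism gave 6 members with a median of -0.42. LCB2, a subunit of the serine palmitoyltransferase that starts sphingolipid synthesis, had 8.36 in ripe and 11.6 in unripe pulp (-0.47, 1.39-fold). FAX1 (AT3G57280), which exports fatty acids from the plastid, had 11.1 in ripe and 14.4 in unripe pulp (-0.37). BADC2 (AT1G52670), an inactive relative of the biotin carrier that damps the plastid acetyl-CoA carboxylase, had 6.04 in ripe and 8.30 in unripe pulp (at least 1.01-fold), and ACLA-3, a subunit of the ATP-citrate lyase that makes cytosolic acetyl-CoA, had 7.47 and 9.48 (at least 1.15-fold).

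All 6 members sorted under auxin and sugar signals had a ripe mean at or under 8.24, and 1 of them, PV42a, was past the 25% limit with signals set to at least 8.24. PV42a (AT1G15330), a protein with CBS domains related to subunits of SnRK1, the energy-sensing kinase, had 7.23 in ripe and 11.9 in unripe pulp (-0.72, at least 1.45-fold). YUC2, a flavin monooxygenase of the last step of auxin synthesis, had 7.92 in ripe and 10.1 in unripe pulp (-0.36, at least 1.23-fold). IAGLU, which joins auxin to glucose, had 6.30 in ripe and 8.30 in unripe pulp (at least 1.01-fold), and SEC, an O-GlcNAc transferase, had 6.50 and 8.75 (at least 1.06-fold).

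Among 6 members of other metabolism (median -0.40), AT2G35040, which carries out the closing steps of purine synthesis, had 11.9 in ripe and 15.9 in unripe pulp (-0.41). LEA4-5, a late embryogenesis abundant protein known from drying seeds, had 7.89 in ripe and 10.9 in unripe pulp (-0.46, at least 1.32-fold). For the remaining 9 grouped members only a protein domain is known, and their median was -0.38. Among the named members without a group, AT3G29152 had 7.81 in ripe and 12.5 in unripe pulp (at least 1.52-fold), AT2G15500 had 9.02 and 14.1 (-0.64) and AT4G36230 had 7.56 and 11.2 (at least 1.36-fold). AT4G38225 had 6.11 in ripe and 8.68 in unripe pulp (at least 1.05-fold), and AT1G15840 had 13.8 and 18.1 (-0.40).

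An unripe mean above 32 was found for 6 members. The named gene among them, AT2G07741, had 152 in ripe and 194 in unripe pulp (-0.35, 1.28-fold), but it is a nuclear copy of a subunit of the mitochondrial ATP synthase, and its signal may include that of the mitochondrial gene. With quantile normalization its difference shrank to -0.028. Of the others, probe-set 258712_s_at, which carries several genes, had 210 in ripe and 324 in unripe pulp (-0.63). The unnamed probe-sets 265857_s_at and 254617_s_at had 76.6 and 33.5 in ripe pulp, against 113 and 64.3 in unripe pulp (-0.56 and -0.94). These 3 probe-sets and that of AT2G07741 carry the suffix s, which marks probes shared by several transcripts. The remaining 2, 250995_at and 252222_at, had 40.6 and 24.1 in ripe pulp, against 56.6 and 32.1 in unripe pulp (-0.48 and -0.42). Suffixes s or x were found on 12 members, or 5.69%, against 3.25% of all nuclear probe-sets above 8.24.

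Close relatives of the members, that is paralogs and partners in the same complex, gave a view of genes that were not chosen by the rule. Of 91 relatives listed by gene, 39 had a named probe-set that was no member, and 5 of these were above 8.24. Their median log2 difference was 0.019, and 14 of the 39 were negative. Past the 25% limit, 1 was lower in ripe pulp, namely gamma-COP of the COPI coat (AT4G34450), at signals of 2.62 in ripe and 3.30 in unripe pulp, and 3 were higher. Since members had to be lower and their relatives did not, and since most relatives were dim, the contrast describes single pairs only. SEC was at -0.43, whereas SPY (AT3G11540), its relative that adds fucose instead, had 9.57 in ripe and 6.80 in unripe pulp (0.49). In the COPI coat the beta-prime subunit AT1G79990 was at -0.46 on the chosen probe-set, whereas an alpha subunit (AT2G21390) had 8.72 in ripe and 6.55 in unripe pulp (0.41), and the delta subunit (AT5G05010) had 11.6 and 10.7 (0.13). Of the paralogs of AT1G79990, AT1G52360 had 6.996 in ripe and 8.14 in unripe pulp (-0.22) and AT3G15980 was at 0.0011, both under 8.24. RPL7 AT2G44120 was at -0.59, while its relatives AT1G80750, AT2G01250 and AT3G13580 were at 0.39, 0.041 and 0, all under 8.24 in both stages. UGT72E1 and UGT72E3, from the same glucosyltransferase family as UGT72E2, were at 0.20 and 0.12 and also dim. BASS1 (AT1G78560) had 8.42 in ripe and 9.15 in unripe pulp (-0.12), beside -0.50 for BASS3.

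**Figure D4:**
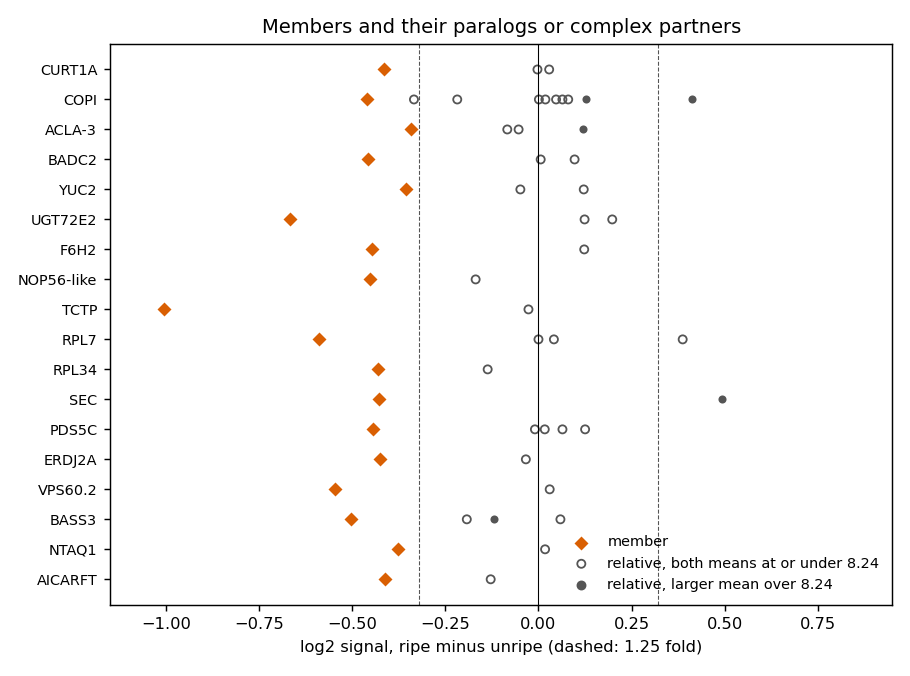
log2 signal difference, ripe minus unripe, of members (orange diamonds) and of their measured paralogs or complex partners (circles, filled where the larger stage mean was over 8.24), 1 line per family; dashed lines mark a difference of 25% either way. The members lie left of the left line by choice, the 39 relatives spread around a median of 0.019, and SPY, beside SEC, is at 0.49.

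Other probe-sets that carry the same gene name as a member were found for 3 names. Besides that of AT1G79990, probe-set 266709_at, which carries the symbol SPP, had 5.80 in ripe and 5.08 in unripe pulp (0.19). It was matched by this symbol only and may belong to another gene than the chosen probe-set, so that their signs cannot be compared. AT1G44224 was at -0.11 on 245212_at. All 4 stage means of these last 2 probe-sets were under 8.24.

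Members were spread over the brightness range. Of the probe-sets with a larger mean of 8.24 to 10, 8.18% were members and 6.93% were higher in ripe pulp. The shares were 9.09% and 8.70% from 10 to 12, 11.1% and 10.6% from 12 to 16, and 9.12% and 11.7% from 16 to 32. Above 32, 6 of 45 were members and 6 were higher. In each brightness range some probe-sets were lower and some higher, and neither direction had the larger share throughout. By locus, 26.7% of 101 members with a locus identifier were on Arabidopsis chromosome 1, 20.8% on 2, 23.8% on 3, 12.9% on 4 and 15.8% on 5, against 25.6%, 15.9%, 21.0%, 13.0% and 24.5% of 1090 such nuclear probe-sets above 8.24.

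**Figure D5:**
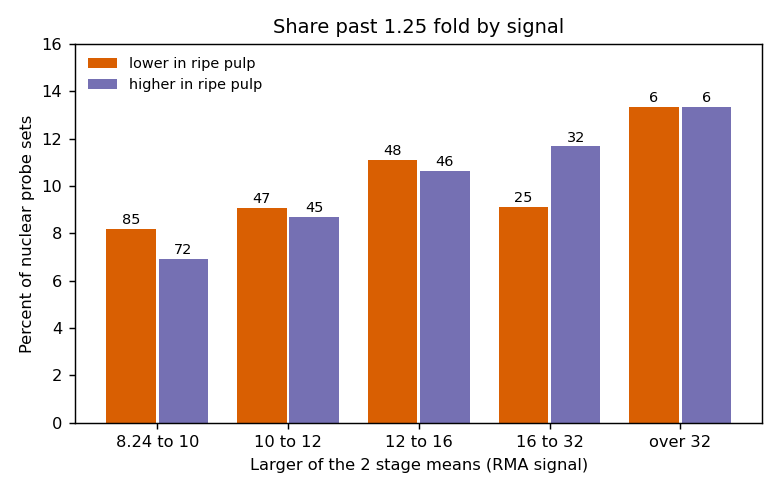
Percent of nuclear probe-sets that were lower (orange) or higher (purple) in ripe pulp past the 25% limit, by the larger of the stage means in RMA signal units; numbers above the bars count probe-sets. Lower probe-sets make 8.18% of the dimmest class and 6 of the 45 brightest, and higher ones 6.93% and 6.

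Lists of gene symbols for pathways and for other tissues reached few probe-sets, since most genes carry a locus identifier in place of a symbol. Of 37 probe-sets of the ubiquitin and proteasome list, 7 were above 8.24, of which UBC28 was a member and PUB26 and PUB19, ubiquitin ligases of the U-box type, were higher in ripe pulp (0.37 and 0.36). UBC30 and UBC20, enzymes of the same kind as UBC28, were at -0.22 and -0.075 and passed the limit in neither direction. YUC2 was the 1 probe-set above 8.24 in the auxin list. Above 8.24 the vesicle traffic list held the members VPS60.2 and, by its symbol only, SEC. It also held SEC5A, which had 16.3 in ripe and 16.2 in unripe pulp (0.014) and was no member. None of the 4 probe-sets above 8.24 in the cell wall list was a member. CSLD2, of the cellulose synthase-like family, was past the limit in the other direction, with 11.003 in ripe and 7.28 in unripe pulp (0.60). The expansins EXPA24 and EXPA18, which loosen the wall, were at -0.32 and -0.19. PGL34, in this list by its symbol only, was at -0.10. PSAE-1 of photosystem I, the nuclear photosynthesis probe-set above 8.24, was at -0.11. For tissues other than pulp, the lists reached 1 seed and 1 epidermis probe-set, neither above 8.24, and no vascular one, so that the share of other tissues in the samples was not tested.

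All differences are relative to the scale of the deposited table. The Bacillus subtilis controls had log2 differences of -0.28 to 0.12 with a median of -0.020. The 14 hybridization controls bioB, bioC and bioD, in contrast, had a median of -0.60 (-0.75 to -0.36), below the -0.42 of the members, while the 4 cre controls had a median of -0.053. Scaled to bioB, bioC and bioD, the median of the members was 0.15, and 188 of the 211 were no longer lower in ripe pulp. TCTP and AT1G64560 stayed lower on that scale, at -0.43 and -0.59. The part of this scaling in the members' differences was not tested.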

How the data were processed

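The authors hybridized pulp cRNA to ATH1 arrays and applied RMA, per the labels, and per the methods GeneSpring with probes masked by genomic DNA. The deposited values are linear intensities of every probe-set. The sources used here do not state whether the mask was applied to them. The 6 pulp columns were used, grouped by the stage in the labels. The genomic DNA column is empty. The members and lists were chosen with earlier results of these data known. Stage means and log2 ratios were computed with Python 3.11.15, numpy 2.4.6 and pandas 2.3.3. The rule was also run on simulated signals with assumed noise and changes of 1.5 or 2 fold, in probe-sets brighter than most members. Only 22 members are past 1.5 fold, so that this run does not cover most of them. No linear model was run. Named genes are the 20 named members with the lowest ratio, the 10 with the largest signals, those next to each limit and members of the 16 symbol lists. Other members were named by function after their values were seen. The 10 groups, the roles and the relatives were compiled by hand from general knowledge. The groups were enlarged once after the values were seen, and the relatives were listed before their own values were read. Arrays give no depth, and the number of values per stage limits the precision. Alternatives concerned the mean, scaling, a pseudocount of 16, the brightness limit, the fold and left-out columns.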

Additional observations from a re-analysis of the deposited data

How the results depend on the processing

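The count of members was 208 with geometric means, 210 (204 shared) with quantile normalization and 213 (211 shared) with median centring. It was 109 when scaled to cre, 6 with 16 added to each signal and 3 on the scale of bioB, bioC and bioD. It was 31 with a limit of 16, 761 with no brightness limit and 22 at 1.5 fold. With both stages set to at least 8.24, an alternative chosen after seeing the data, it was 113. Without 1 column it ran from 127 (without unripe replicate 2) to 372 (without unripe replicate 1), with 144 without ripe replicate 1 and 340 without ripe replicate 2, since columns differ by a constant factor, and without 1 replicate number in both stages it ran from 187 to 236. When only gene symbols were matched, 14 members rather than 81 could be sorted by function. Scaled to bioB, bioC and bioD, the median of the members was 0.15, and 16 of 29 named genes turned positive: AT4G36230 0.013, AT2G41250 0.029, VPS60.2 0.030, AT1G53120 0.030, AT1G72830 0.033, AT2G39000 0.069, AT4G38225 0.070, AT3G25410 0.074, AT1G75510 0.083, AT3G28550 0.13, UBC28 0.15, AT3G13120 0.15, AT3G02340 0.16, AT1G15840 0.18, AT1G79710 0.18 and AT2G07741 0.23. Under the other scalings, the geometric mean, the pseudocount, the raised signals and every left-out column or replicate number, the 29 stayed negative. A constant scaling shifts every log2 difference alike, so that these counts follow from its construction. No paired analysis was possible because the columns of a stage are proportional and hold no independent replicates. The genomic DNA alternatives were not run, since that column is empty. The main limits are 1 set of values per stage, signals near the bacterial controls and probes of another species.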
